A study of Mus musculus with 14 samples.

Results

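The 9 genes Mbp, Mag, Mog, Mobp, Cnp, Olig1, Olig2, Sox10 and Pdgfra mark the oligodendrocyte lineage from its progenitors to the myelin sheath. They were chosen by symbol, and every probe annotated to one of them was kept. This gave 13 probes, out of 30626 named probes for 21893 genes. Mbp and Mobp had 3 probes each, and the other 7 genes had 1 each. RNA of brain and skeletal muscle, collected 1 day after birth, had been hybridised to 14 single-dye (Cy3) Agilent arrays. The groups were 4 Brain WT, 4 Brain KO, 3 Muscle WT and 3 Muscle KO arrays. All mice had the C57BL6 background and none was treated. KO mice carried a trap vector ahead of the AUG codon of Cugbp1, now named Celf1, made with BayGenomic ES cells, so the KO groups rest on 1 gene-trap allele. The WT controls carried no trap. Sex and litter were not used here, and nothing states that the arrays of a group came from separate mice, so p-values measure only the spread between arrays.

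In the central nervous system, oligodendrocyte progenitors carry the PDGF receptor encoded by Pdgfra and the transcription factors Olig1, Olig2 and Sox10. As they mature they lose the receptor and switch on the proteins of compact and non-compact myelin, which in mouse brain happens mostly after birth. Schwann cells, the myelinating glia of peripheral nerve that also lie in muscle, share Sox10, Mbp, Mag and Cnp, whereas Olig2, Mog and Mobp are known from central glia. Celf1 is an RNA-binding protein that acts on splicing, decay and translation of messenger RNAs with GU-rich elements. Values below are the intensity of a probe on the array scanner, or its level, which is log2 of the intensity minus the 75th percentile of the same array. Levels of different probes are not set against each other. The test was limma on every named probe, with Benjamini-Hochberg adjustment over all of them and a threshold of 0.05.

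The 250 bases ahead of the start of Mobp, Olig2 and Pdgfra are shown as examples of 3 contrasts. Mobp had the widest gap between KO and WT brain of the 9 genes, though it was not called. Olig2 had a brain signal with almost none in muscle, and Pdgfra had a higher level in muscle. Olig1 differed more between WT brain and WT muscle than Olig2, by 9.72 against 6.19, and is not shown. The sequences are RefSeq's on GRCm38.p6, all on the + strand, and 6 of the 9 genes had an entry. They lie at chr9:120149492-120149741, chr16:91225300-91225549 and chr5:75152001-75152250. Capitals mark the E-box letters CANNTG, the kind of site that factors of the Olig family bind, and the letters ACAAAG, the core of sites that SOX factors bind, read on both strands.
Mobp: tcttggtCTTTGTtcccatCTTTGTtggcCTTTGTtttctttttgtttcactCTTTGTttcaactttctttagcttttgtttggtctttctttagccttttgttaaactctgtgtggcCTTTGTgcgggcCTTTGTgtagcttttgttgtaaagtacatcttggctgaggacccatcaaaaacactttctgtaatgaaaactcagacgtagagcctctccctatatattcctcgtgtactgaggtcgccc
Olig2: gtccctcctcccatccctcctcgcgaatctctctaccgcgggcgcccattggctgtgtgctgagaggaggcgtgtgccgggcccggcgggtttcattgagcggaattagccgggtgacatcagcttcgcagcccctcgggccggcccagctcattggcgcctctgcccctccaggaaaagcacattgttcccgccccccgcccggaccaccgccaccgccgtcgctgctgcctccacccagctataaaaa
Pdgfra: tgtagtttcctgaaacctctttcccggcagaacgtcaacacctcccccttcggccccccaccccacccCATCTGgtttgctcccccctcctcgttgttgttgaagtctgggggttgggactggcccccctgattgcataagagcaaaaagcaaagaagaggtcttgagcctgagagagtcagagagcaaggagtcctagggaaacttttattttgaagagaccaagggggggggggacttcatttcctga
The Mobp sequence held 6 matches to ACAAAG on either strand and 0 E-boxes. The Olig2 sequence held 0 of both, and the Pdgfra sequence held 1 E-box. Of 32851 promoter windows of the same length, 66.2% held an E-box and 16.5% held ACAAAG, and no match overlapped another in the 3 sequences. As many as 6 matches to ACAAAG occurred in 1 of these windows, that of Mobp, a count looked up after the sequence was seen. The Olig2 sequence had 22 CG pairs and 66.8% G and C. The Mobp and Pdgfra sequences had 4 CG pairs each, against a median of 6 over all windows. These matches describe letters, not binding.

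The trapped gene was checked first. On its 3 probes, Celf1 stood at 25.6% to 34.5% of WT in KO brain, and the adjusted p in limma ranged from 0.000939 to 0.0050. In muscle it stood at 6.43% to 14.6% of WT, with adjusted p of 0.0876 to 0.208 in limma. KO arrays lay below WT arrays on each probe in both tissues. Tissue labels held: of 12 neuron genes 11 were higher in WT brain, and 10 of 10 skeletal muscle genes were lower. WT arrays 3 and 4 of brain stood apart. Their mean deviation over 12 hypoxia genes was 1.34 and 1.41 on the log2 scale, against -0.81 to -0.08 for the other 6 brain arrays. WT array 3 of muscle reached 2.25 in the same list. Each KO minus WT difference in brain is therefore also given without WT arrays 3 and 4.

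WT brain was compared with WT muscle to show which of these probes carry a brain signal. Of the 13 probes, 6 were higher in WT brain, 2 were higher in WT muscle and 5 did not pass the test. Over all named probes, 58.2% passed, 28.3% as higher and 29.9% as lower in brain. The brain-high probes were those of Olig1 and Olig2, 1 of Mobp, 2 of Mbp and that of Sox10, and the muscle-high probes were those of Pdgfra and Mog. In whole tissue, fewer cells of a type and less RNA per cell cannot be told apart.

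Olig1 and Olig2, neighbouring genes on chromosome 16, encode the basic helix-loop-helix factors that set up the lineage. Olig1 had intensities of 2784, 3978, 2204 and 2287 on the 4 WT brain arrays and of 2.96, 2.88 and 2.58 on the 3 WT muscle arrays. The muscle values lay within 2-fold of the lowest intensity of their arrays, so the probe was at the floor there. The difference in level, brain minus muscle, was 9.72 (SE 0.228, adjusted p = 2.5e-12 in limma). Its size depends on that floor: with 50 added to each intensity it was 5.52. Olig2 had intensities of 259.8, 469, 261 and 269.9 in WT brain and 3.71, 4.66 and 2.68 in WT muscle. All 3 WT muscle values were at the floor, and brain arrays exceeded every muscle array. The difference was 6.19 (SE 0.218, adjusted p = 6.95e-11 in limma), or 2.53 with 50 added.

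Mobp, a small basic protein of compact central myelin, had 3 probes that disagreed. Probe A_55_P1958798 gave 39.2, 76.5, 172 and 143 in WT brain and 2.78, 2.49 and 2.57 in WT muscle, where it was at the floor. Its difference was 4.94 (SE 0.423, adjusted p = 3.46e-07 in limma), and 1.29 with 50 added. Probe A_51_P291224 gave 22.7 to 28.9 in WT brain and 20.2 to 28.4 in WT muscle, with overlapping groups and a difference of -0.07 (SE 0.443). Probe A_55_P1958793 stayed within 2-fold of the lowest intensity on all 14 arrays and so carried no measurable signal in either tissue.

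Mbp, the main basic protein that compacts the myelin membrane, was higher in WT brain on 2 of its 3 probes. Probe A_52_P604195 gave 2107, 2789, 2968 and 3264 in WT brain against 556, 261 and 772 in WT muscle, a difference of 2.30 (SE 0.417, adjusted p = 3.36e-04 in limma). Probe A_55_P1992160 gave 221, 257, 316 and 308 against 32.2, 6.34 and 36.6, a difference of 3.59 (SE 0.609, adjusted p = 1.91e-04 in limma). On both, all WT brain arrays lay above all WT muscle arrays. Probe A_52_P329451 gave 63.9 to 175 in WT brain and 56.6 to 272 in WT muscle, which overlapped, with a difference of -0.21 (SE 0.604).

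Sox10, the HMG-box factor that both central and peripheral myelinating glia need, was measured well above the floor in both tissues. Its intensities were 877, 1623, 1262 and 1366 in WT brain and 335, 666 and 819 in WT muscle. The difference was 0.93 (SE 0.245, adjusted p = 0.0051 in limma) with no overlap in level. Cnp, an enzyme of non-compact myelin that hydrolyses cyclic nucleotides, differed by 0.54 (SE 0.256, adjusted p = 0.090 in limma). Its WT brain array 1 was low, at 769.6 against 1696 to 1873 on the other WT brain arrays, and without that array the difference was 0.77 (adjusted p = 0.00794 in limma). Mag, an adhesion protein of the membrane next to the axon, differed by 0.64 (SE 0.338, adjusted p = 0.129 in limma) with overlapping groups.

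Pdgfra was the reverse of the Olig genes. It had intensities of 947, 1345, 1058 and 1207 in WT brain and 2454, 3502 and 3861 in WT muscle, where fibroblasts are known to carry the receptor. The difference was -1.72 (SE 0.185, adjusted p = 3.08e-06 in limma), and the groups did not overlap. The list of 12 fibroblast and meningeal genes had 9 lower and 2 higher in WT brain, with a median difference of -3.72, and the part of these cells in the Pdgfra signal of either tissue was not tested. Mog, an immunoglobulin-like protein of the outermost myelin surface, gave 77.3, 102, 93.7 and 93.1 in WT brain and 105, 136 and 222 in WT muscle. Its difference was -0.90 (SE 0.292, adjusted p = 0.017 in limma). The call was lost without WT muscle array 3, at -0.59 (adjusted p = 0.0934 in limma), without WT brain arrays 3 and 4, at -0.97 (adjusted p = 0.0529 in limma), and without scaling, at -0.69 (adjusted p = 0.0528 in limma). Mog is known as a gene of central myelin, so a muscle level at or above the brain level goes against taking this probe as a marker of oligodendrocytes in these samples.

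**Figure D1:**
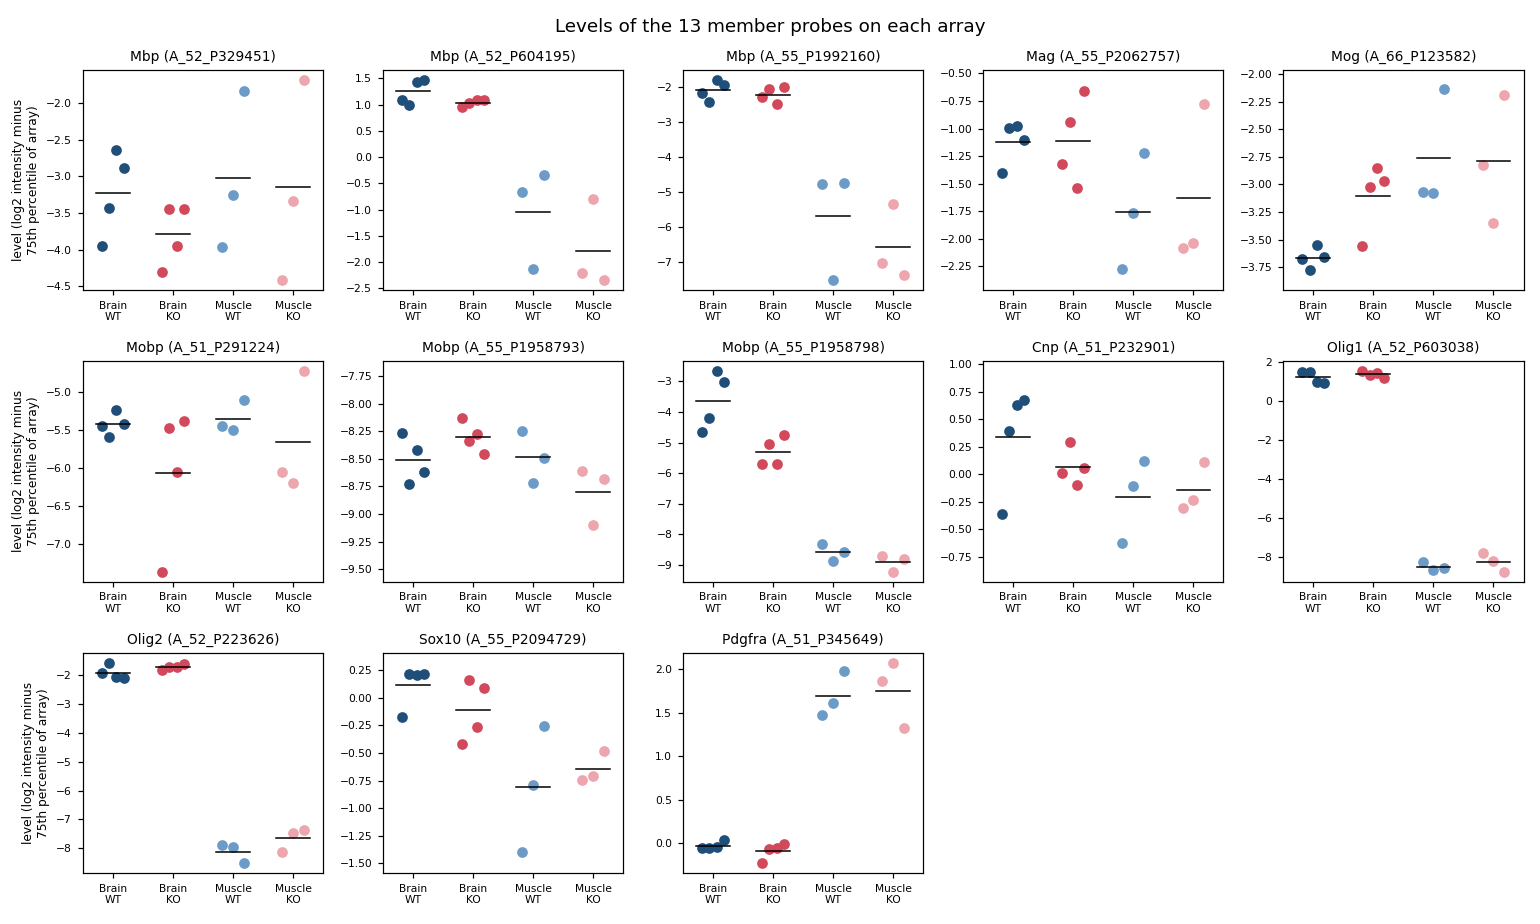
Level (log2 intensity minus the 75th percentile of the array) of each of the 13 probes, one panel a probe; points are arrays, lines are group means, and blue and red mark WT and KO. Olig1, Olig2 and Mobp probe A_55_P1958798 sit far lower on muscle arrays than on brain arrays, and Pdgfra sits higher on muscle arrays.

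The main question of the series was what loss of Cugbp1 does to the transcriptome, which was asked here in brain by setting 4 KO arrays against 4 WT arrays. None of the 13 probes passed the test: 0 were called, where 0.0294% of all named probes were (9 probes, 3 of them of Celf1). At an unadjusted p below 0.05 in limma there were 2 of the 13, and 8.68% of all named probes. One probe, of Mobp, had every KO array below every WT array, as had 2.53% of all named probes. The median difference over the 13 probes was -0.13, and over all named probes 0.0065. Without WT arrays 3 and 4 these medians were -0.0044 and 0.0014. On simulated data, 57 of 100 probes with a true change of 1.5 on the log2 scale were called, and 91 of 100 with a change of 3. There were 5 false calls, and smaller changes could be missed. The simulated spread of each probe was averaged over the 4 groups of both tissues. These counts therefore do not give the power in brain itself.

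Among the transcription factors, Olig1 gave 3768, 2693, 3163 and 2761 in KO brain beside the WT intensities above. Arrays overlapped: the lowest Olig1 values were those of WT arrays 3 and 4. The level difference, KO minus WT, was 0.15 (SE 0.163, 95% interval -0.23 to 0.52), and -0.11 without WT arrays 3 and 4. Olig2 gave 362, 322, 346 and 390.2 in KO brain, inside the WT range, and differed by 0.20 (SE 0.136, 95% interval -0.11 to 0.51). Without WT arrays 3 and 4 that difference was 0.028. Sox10 gave 964, 1188, 954 and 1269 in KO brain and differed by -0.23 (SE 0.164, 95% interval -0.60 to 0.15), or by -0.13 without those 2 WT arrays. The adjusted p of these 3 factors in limma lay between 0.625 and 0.759.

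Pdgfra, the receptor of the progenitors, had the smallest standard error of the 13 probes in brain. Its intensities were 1099.6, 1009, 1103 and 1192 in KO brain, and the difference in level was -0.06 (SE 0.0903, adjusted p = 0.81 in limma). The 95% interval of that difference ran from -0.27 to 0.15, and the difference was -0.03 without WT arrays 3 and 4. The genes of PDGF ligands and of the other PDGF receptor, Pdgfa, Pdgfb, Pdgfc, Pdgfd and Pdgfrb, had 0 of 5 called. Their median difference was -0.07, or -0.15 without WT arrays 3 and 4. Pdgfb, a ligand, gave 1219, 989, 957 and 957 in KO brain against 1044, 1373, 1250.3 and 1485 in WT brain, a level difference of -0.34 (SE 0.114). KO arrays lay below WT arrays in level, with an adjusted p of 0.569 in limma, and the difference was -0.22 without WT arrays 3 and 4. Pdgfd, another PDGF ligand, was dim, with a mean intensity of 15.3 in KO brain and 27.1 in WT brain. It differed by -0.81 (SE 0.287), and by -0.71 without WT arrays 3 and 4.

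Among the myelin proteins, the widest difference was that of Mobp probe A_55_P1958798. It gave 24.8, 32.4, 21.9 and 44.4 in KO brain and 39.2, 76.5, 172 and 143 in WT brain. In level, each of the 4 KO arrays was under each of the 4 WT arrays, and WT arrays 3 and 4 were the highest. The difference was -1.66 (SE 0.459, 95% interval -2.71 to -0.61), a 3.16-fold gap in the mean level, with an adjusted p of 0.569 in limma. Without WT arrays 3 and 4 the difference was -0.87 (adjusted p = 0.988 in limma), and with 50 added to each intensity it was -0.90. The other measurable Mobp probe, A_51_P291224, was as bright in WT muscle as in WT brain, so its reading as an oligodendrocyte signal is limited. It differed by -0.64 (SE 0.405) between KO and WT brain, with KO array 1 low at 7.81 and the other KO arrays at 17.2 to 28.8. Its WT arrays lay between 22.7 and 28.9, so KO and WT overlapped, and without WT arrays 3 and 4 the difference was -0.55. The third probe, A_55_P1958793, at the floor on all arrays, differed by 0.21 (SE 0.130), and by 0.20 without those 2.

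The Mbp probes differed by -0.56 (SE 0.316), -0.21 (SE 0.132) and -0.13 (SE 0.174) in the order A_52_P329451, A_52_P604195 and A_55_P1992160. The first of these, A_52_P329451, did not separate WT brain from WT muscle, unlike the others. KO arrays gave 2496, 2160.4, 2434 and 2556 on A_52_P604195, and WT arrays 3 and 4 were above them all. On each of the 3 probes WT arrays 3 and 4 had the highest levels of the 8. Without them the differences were -0.10, -0.0044 and 0.08. Cnp had the same arrays at the top: KO arrays gave 1297, 1300.0, 1069.8 and 1243, and WT arrays 3 and 4 had the highest levels. Its difference was -0.27 (SE 0.230) with all arrays and 0.048 without those 2.

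Mag gave 515, 552, 394 and 759.5 in KO brain and 373, 703, 554 and 547 in WT brain. Both groups spread over the same range, and the difference was 0.0039 (SE 0.204, 95% interval -0.46 to 0.47), or 0.08 without WT arrays 3 and 4. Mog was the only member whose 95% interval lay above 0 in brain, from 0.20 to 0.93. It gave 109.6, 131, 158 and 153 in KO brain and 77.3, 102, 93.7 and 93.1 in WT brain, a difference of 0.56 (SE 0.160, unadjusted p = 0.00757 and adjusted p = 0.569 in limma). In level, KO array 1 lay just below WT array 3, and the other 3 KO arrays were above all WT arrays. The difference did not rest on WT arrays 3 and 4, being 0.63 without them. Since this probe was as bright in muscle as in brain, its reading as an oligodendrocyte signal is limited in the same way as above.

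**Figure D2:**
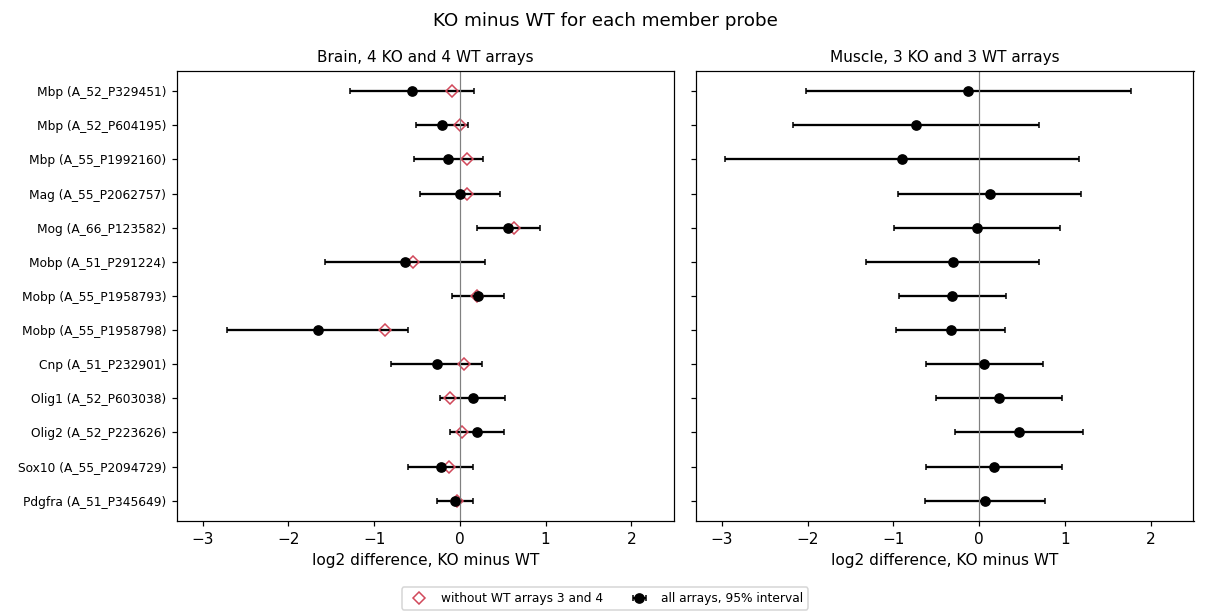
Difference in level, KO minus WT, for each of the 13 probes in brain (left) and muscle (right), with 95% intervals from limma; red diamonds give the brain difference without WT arrays 3 and 4. The interval of Mobp probe A_55_P1958798 lies below 0 and that of Mog above 0 in brain, and the diamonds of Mbp and Cnp sit near 0.

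The lineage beyond the 9 genes was described with lists of genes, 1 probe a gene. In brain 0 genes of any list were called. Over all measured genes, 47.8% had a difference below 0 and the median was 0.012. Of 12 other genes of progenitors 8 lay below 0 and the median was -0.08. Of 11 genes of committed and premyelinating cells 9 lay below 0, with a median of -0.20. Of 21 other myelin genes 12 lay below 0, with a median of -0.16, which was -0.05 with 50 added to each intensity. The 15 transcription and RNA regulators had 8 below 0 and a median of -0.05. Without WT arrays 3 and 4 these medians were -0.01, -0.02, -0.05 and 0.02.

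The genes named here were taken from the 4 of lowest unadjusted p per list in limma, so they were picked from these data. Of the 21 other myelin genes 9 lay above 0, while those named here (Evi2a, Trf, Mal and Fa2h) lay below. Gpr17, a receptor that marks the passage from progenitor to immature oligodendrocyte, gave 3819.9, 3314, 2824 and 3125 in KO brain and 3443, 5415, 5869 and 5859 in WT brain. Its levels did not overlap between genotypes, with KO lower (log2 difference -0.65, SE 0.162, adjusted p = 0.569 in limma). The difference was -0.40 without WT arrays 3 and 4. Evi2a, a gene enriched in myelinating cells, gave 89.4, 71.3, 70.7 and 89 in KO brain against 85.7, 176, 151 and 129 in WT brain. Its difference was -0.74 (SE 0.154, adjusted p = 0.429 in limma) and -0.62 without WT arrays 3 and 4, again with no overlap in level. In the lists, this lack of overlap held for 1 of 11 committed and premyelinating genes and 1 of 21 other myelin genes. Over all named probes, 2.53% had every KO brain array below every WT brain array. Trf, the iron carrier transferrin that oligodendrocytes make, differed by -0.45 on one probe and -0.44 on the other, and by -0.33 and -0.30 without WT arrays 3 and 4. Itpr2, a calcium channel gene of premyelinating cells, differed by -0.42 on one probe and 0.08 on the other, and by -0.16 and 0.07 without those arrays. Cspg4, the NG2 proteoglycan of progenitors, moved from -0.37 to -0.06 once WT arrays 3 and 4 were left out. Mal, a myelin proteolipid, moved from -0.61 to -0.05. Fa2h, which hydroxylates the fatty acids of myelin lipids, moved from -0.70 to -0.40, and Fyn, a kinase that acts in early myelination, from 0.35 to 0.20. Qk, whose protein binds myelin messenger RNAs, moved from -0.25 to 0.011. Sox8, a relative of Sox10, moved from -0.19 to -0.08, and Zfp24, a zinc-finger factor of maturation, from 0.25 to 0.07. None of these genes was called with all arrays. Without WT arrays 3 and 4, 0 of all 30626 named probes were called, those of Celf1 included. The lack of a call in that setting therefore says nothing about these genes.

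Lists of other cell types gave values on the same scale. Of 11 astrocyte genes 10 lay below 0 and the median was -0.31, or -0.10 without WT arrays 3 and 4. The summed intensity of that list was 72706 to 88543 on KO arrays and 85153 to 112624 on WT arrays. Slc1a2, the glutamate transporter of astrocytes, differed by -0.79 (SE 0.236), and by -0.35 without those 2 WT arrays. Of 11 microglia genes 9 lay below 0, with a median of -0.25, or -0.11 without WT arrays 3 and 4. Of 12 hypoxia genes 12 lay below 0, with a median of -0.96, and -0.10 without WT arrays 3 and 4. Their summed intensity ran from 32660 to 48576 on KO arrays and from 35071 to 146918 on WT arrays. Neuron genes had 6 of 12 below 0 and a median of -0.01, or 0.04 without those arrays. Neural progenitor genes had 3 of 11 below 0 and a median of 0.11, and endothelial genes 4 of 8 and a median of 0.09. Without WT arrays 3 and 4 these medians were 0.014 and 0.017. Skeletal muscle genes had 9 of 10 below 0 and a median of -0.30 in brain, which widened to -0.60 without those arrays. No gene of these lists was at 0, the lowest intensity on any array being 2.04. The part of these lists in the differences of Mobp, Mbp and Cnp was not tested. Enzymes of cholesterol synthesis, the lipid that myelin needs most, had 11 of 16 below 0 and a median of -0.04 in brain, and -0.17 without WT arrays 3 and 4.

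**Figure D3:**
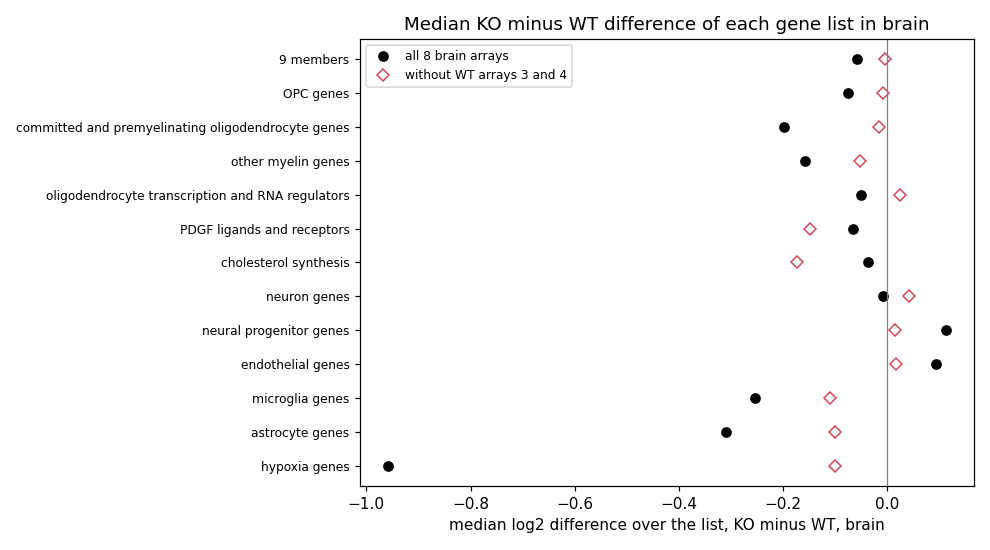
Median difference in level, KO minus WT, over the genes of each list in brain, with all 8 arrays (black) and without WT arrays 3 and 4 (red diamonds). The hypoxia list moves from -0.96 to -0.10, and the lists of committed and other myelin genes move towards 0.

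How the 8 brain arrays varied was described by the deviation of each array from the mean of its tissue. That mean covers KO and WT arrays, so each deviation also holds part of the KO minus WT difference. WT arrays 3 and 4 deviated by 1.80 and 1.43 for Mobp probe A_55_P1958798, by 0.43 and 0.47 for Cnp and by 0.29 and 0.33 for Mbp probe A_52_P604195. The same arrays deviated by -0.31 and -0.35 for Olig1 and by -0.25 and -0.30 for Olig2. Mag deviated by 0.14 and 0.017 and Mog by -0.16 and -0.27. Sox10 deviated by 0.20 and 0.21 and Pdgfra by 0.011 and 0.10. On the arrays where hypoxia genes were high, this Mobp probe, Cnp and the Mbp probes were thus high and both Olig genes low. Mag and Mog were not at the top of the range there, and Sox10 and Pdgfra did not share the low values of the Olig genes. The part of the hypoxia genes in that pattern was not tested. KO array 1 deviated by -1.62 for Mobp probe A_51_P291224, against -0.31 to 0.51 for the other arrays.

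**Figure D4:**
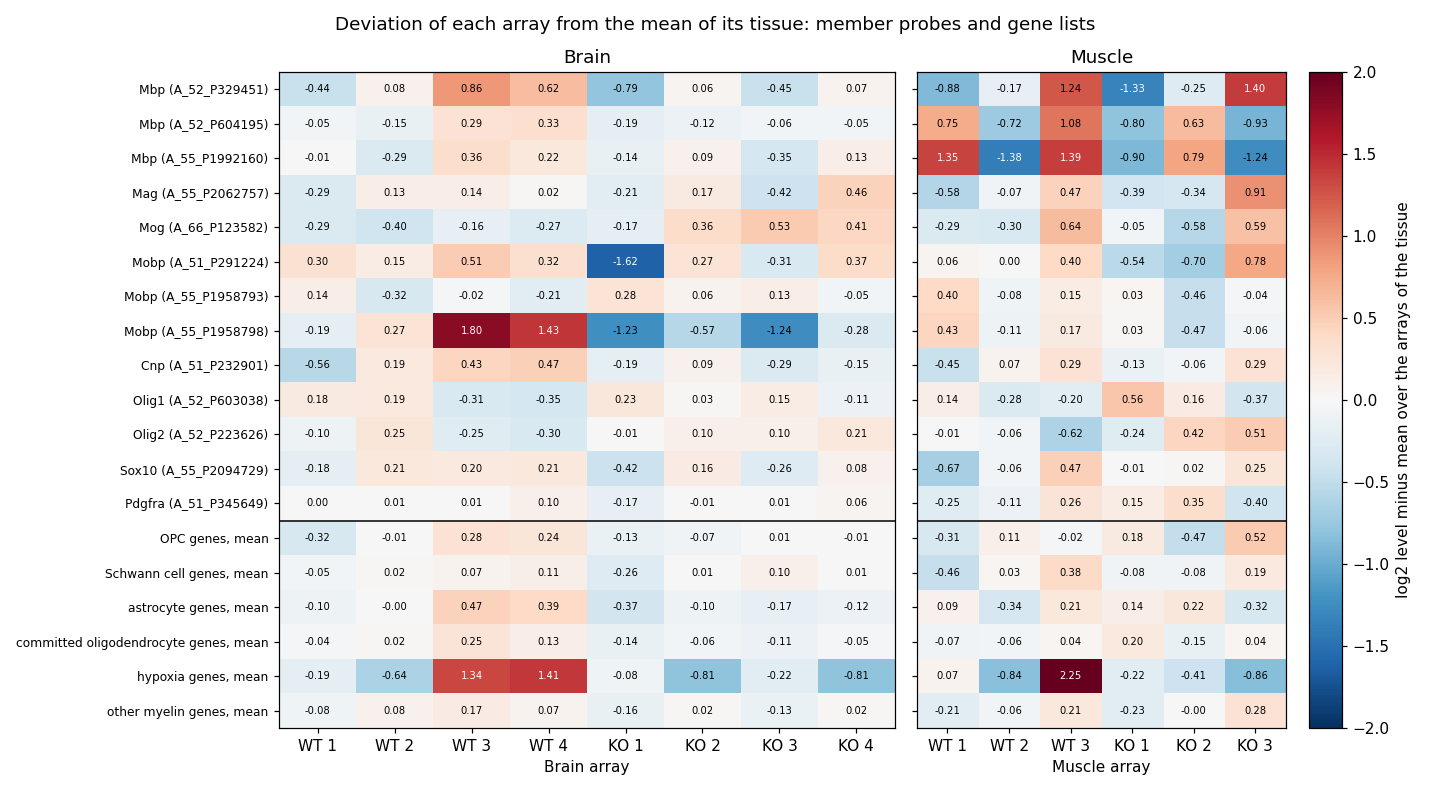
Deviation of each array from the mean of its tissue (log2 scale) for the 13 probes and the mean of 6 gene lists; columns are arrays and the colour runs from -2 (blue) to 2 (red). In brain, WT arrays 3 and 4 are high for Mobp probe A_55_P1958798 and hypoxia genes and low for Olig1 and Olig2; in muscle, 2 of the Mbp probes are high on the same 3 arrays, WT 1, WT 3 and KO 2.

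Genes whose deviations from the genotype means were most like those of a member over the 8 brain arrays were listed for 3 members, from 11709 probes searched. Mbp probe A_52_P604195 was most like Atp8a2 and Nell1 (Pearson's r 0.991 each), then Spock2, Rab15 and Rassf7. Olig2 was most like Akr1b8 (r 0.989), Slc10a4l, Gpbp1l1, Apcdd1 and Ip6k2. Pdgfra was most like Ripply2 (r 0.979), Erlin2, Dnase2a, Tmem175 and Triobp. These are descriptions over 8 arrays that share their scaling, and no listed gene belongs to the lineage lists. The 8 include WT arrays 3 and 4, where this Mbp probe was highest, and likeness was not computed without them.

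In muscle, KO was compared with WT for the genes that Schwann cells share. Of the 13 probes 0 were called, where 0% of all named probes were. At an unadjusted p below 0.05 in limma there were 0 of the 13 and 1.59% of all named probes. The median over the 13 probes was -0.03, and over all named probes -0.03. Of 12 hypoxia genes 12 lay below 0 in muscle as well, with a median of -0.95, and WT array 3 was the highest array of that list. Without that array 0 of the 13 probes and 0 of all named probes were called. The part of the hypoxia genes in the muscle differences was not tested. On simulated data 25 of 100 probes with a change of 1.5 were called, and 73 of 100 with a change of 3, with 8 false calls. The simulated spread was again averaged over both tissues, so these counts do not give the power in muscle itself. The 3 Celf1 probes, with differences from -3.96 to -2.77 in muscle, were not called.

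Sox10 gave 609.5, 750.3 and 802 in KO muscle beside 335, 666 and 819 in WT muscle, a difference of 0.17 (SE 0.335, 95% interval -0.62 to 0.96). Mag gave 241, 298 and 651 in KO muscle and 182, 338 and 417 in WT muscle, a difference of 0.12 (SE 0.451). Cnp differed by 0.06 (SE 0.287) and Pdgfra by 0.07 (SE 0.296). KO and WT arrays overlapped for each of these 4 genes, and the interval of Pdgfra ran from -0.64 to 0.77. The sign of each turned when 1 array was left out: Sox10 differed by -0.12 and Cnp by -0.15 without WT array 1, Mag by -0.30 without KO array 3 and Pdgfra by -0.09 without KO array 2. Of 15 other Schwann cell genes 4 lay below 0, as did 53.4% of all genes. Their median was 0.08, against -0.03 over all genes, and 0 were called. Ngfr, a neurotrophin receptor of immature Schwann cells, differed by 0.32 (SE 0.328), and L1cam, an adhesion molecule of non-myelinating ones, by -0.52 (SE 0.392). KO and WT arrays overlapped for both genes, which were named for their low unadjusted p in limma within the list. Of 12 fibroblast and meningeal genes, 6 lay below 0 in muscle and the median was -0.03.

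The Mbp probes varied more among muscle arrays than between genotypes. Probe A_52_P604195 gave 556, 261 and 772 in WT muscle and 219, 709 and 220.5 in KO muscle. Probe A_55_P1992160 gave 32.2, 6.34 and 36.6 in WT muscle and 7.83, 30.4 and 6.79 in KO muscle. On both, WT arrays 1 and 3 and KO array 2 were high, and the other 3 arrays were low. Their differences, KO minus WT, were -0.73 (SE 0.605) and -0.90 (SE 0.872), and both intervals include 0. Probe A_52_P329451 did not share that split: its highest values were 272 on WT array 3 and 348 on KO array 3. Olig1, Olig2 and Mobp probe A_55_P1958798 stayed below an intensity of 7 on every muscle array, so no KO effect could be read there. Within 2-fold of the lowest intensity were 2 of the 3 KO muscle arrays for Olig1 and 1 of 3 for Olig2. Olig2 differed by 0.46 between KO and WT muscle, and by -0.10 with 50 added to each intensity.

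Whether the KO effect differed between brain and muscle was tested in 1 limma model over the 14 arrays. Of the 13 probes 0 were called, where 0.0098% of all named probes were, and 1 had an unadjusted p below 0.05 in limma, as had 3.05% of all named probes. That probe was Mobp A_55_P1958798, with a KO effect of -1.66 in brain and -0.33 in muscle. The difference was -1.33 (SE 0.599, 95% interval -2.62 to -0.03, unadjusted p = 0.046 in limma), and it did not pass after adjustment. Without WT brain arrays 3 and 4 it was -0.54. Its muscle arrays were at the floor, which limits what this comparison can show. For Pdgfra the difference between tissues was -0.13 (SE 0.261, 95% interval -0.69 to 0.44).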

How the data were processed

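The deposited table held one intensity per probe and array on a linear scale, which the authors made with Agilent Feature Extraction, per the submitters' processing notes. The software version and later steps are not given in the sources used here. Of 55681 probes, 30626 carried 1 gene symbol in the platform annotation, and 129 cells of the table were blank, none in the 13 probes. On a linear scale the arrays' 75th percentiles spanned 883 to 1398, and 22.2% to 30.4% of probes lay within 2-fold of the lowest intensity of an array, which was 2.04 to 3.51. The number of arrays limits the precision.

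Each array's log2 intensities were reduced by their 75th percentile over named probes. KO was compared with WT within tissue, and WT brain with WT muscle (adding a test of the KO effect between tissues), by lmFit and eBayes of limma 3.58.1 in R 4.3.3, 2-sided, with Benjamini-Hochberg adjustment over 30626 probes. Scripts were tested on simulated data. Lists used the probe of highest mean per gene. The genes named from a list were at most 4 by lowest p, and those named for likeness the 5 of highest r. Members and lists were chosen with earlier results of these data known. Alternatives covered scaling, quantile normalization, 50 added, dim probes, 1 probe a gene, an intensity trend, replicate blocks, 1 model of 14 arrays, leaving out arrays, and leaving out WT brain arrays 3 and 4.

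Array numbers come from the sample titles. Deviations of same-numbered WT brain and WT muscle arrays correlated at 0.13, 0.25 and 0.22. WT brain array 4 and WT muscle array 3, of different number, correlated at 0.17. Same-numbered KO brain and KO muscle arrays correlated at 0.19, 0.02 and 0.01. These values do not settle which arrays are pairs. The replicate block within genotype joined same-numbered brain and muscle arrays of both genotypes. Printed values come from fits without a block, except where a block is named. The labels do not say whether same-numbered arrays share a mouse. The block within genotype was added after seeing the data.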

Additional observations from a re-analysis of the deposited data

Results flagged for a closer look

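Of 26 groups of 4 arrays tested (13 probes in 2 genotypes of brain), 2 held an array far from the others by Dixon's criterion, and chance alone gives about 1 in 20. The level of Sox10 on WT brain array 1 was -0.171, the lowest of its group, and its gap to the nearest array was 0.963 of the range. The level of Pdgfra on WT brain array 4 was 0.0402, the highest of its group, with a gap of 0.902 of the range, although all 4 WT arrays lay close together.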

How the results depend on the processing

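None of the 13 probes was called in brain, in muscle or in the difference between tissues under any alternative run. Between WT brain and WT muscle 8 were called, 7 without scaling, 7 without WT brain arrays 3 and 4, 4 of the probes above the median level, 6 with 1 probe a gene, and 7 to 9 when leaving out 1 array. No call reversed. The Mog call was lost under the settings given in the report, and Cnp passed, at 0.77, without WT brain array 1. Over all named probes, brain KO against WT had 9 called. There were 5 without scaling, 5 with 1 probe a gene, 5 in 1 model of 14 arrays and 0 without WT brain arrays 3 and 4 (1135 at unadjusted p under 0.05 in limma). Leaving out 1 array gave 3 to 15: 15 without WT 2, 3 without WT 3 or WT 4, 4 without KO 2 and 5 without KO 4. Muscle had 0 called (487 at unadjusted p under 0.05 in limma), 4 with 50 added, 3 above the median level, 1 with the intensity trend and 13 in 1 model of 14 arrays. Leaving out 1 array gave 0 to 2, the 2 without KO 2. WT brain against WT muscle had 17811, and 11335 above the median level, where fewer probes were tested. Leaving out 1 array gave 16937 to 17438. Without scaling 56.1% of these calls were higher in brain, against 48.6%. The difference between tissues had 3, with 1 after adding 50 and 5 with the intensity trend. Leaving out 1 array gave 2 to 8, with 6 without WT muscle 1, 5 without WT muscle 2 and 8 without KO muscle 2. The cause of these shifts was not tested.

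Without scaling, the median of all probes moved to 0.14 in muscle KO against WT, to 0.19 between tissues and to -0.12 for the KO effect of brain minus that of muscle, and 50 added moved it to -0.18 between tissues. The array number as a replicate block gave 0 calls in brain (2409 at unadjusted p under 0.05 in limma), 0 in muscle, 17640 between tissues and 3 for the difference between tissues. Same-numbered WT and KO arrays correlated at 0.05, -0.04, 0.07 and 0.08 in brain and 0.18, -0.07 and 0.19 in muscle. These values do not settle whether such arrays share more than a number. The array number within genotype as a replicate block gave 16831 calls between tissues, 8 of the 13 probes among them, and 0 for the difference between tissues (720 at unadjusted p under 0.05 in limma); it changed no other call. Probes near the lowest intensity limit Olig1, Olig2 and 2 Mobp probes in muscle.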
